A study of Homo sapiens with 8 samples.

Results

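Antisense long noncoding genes of SH-SY5Y cells, a human neuroblastoma line of neural crest origin, were followed in 3 lines together with the genes they are named for. The 172 members are the genes of the table of 47591 genes whose symbol ends in -AS and a digit, and whose normalized counts averaged 100 or more over all 8 libraries, leaving out HOX genes and EPB41L4A-AS1. The mean over all libraries chose the members, so levels are given here as a description. The lines were G2, carrying a CRISPR/Cas9 edit guided to the splicing factor gene PRPF40B (3 libraries), SCR, which received the same machinery with a scramble guide (3 libraries), and WT, which was not edited (2 libraries). G2 and SCR were grown with puromycin, and the edited lines were raised from colonies after limiting dilution, so G2 stands for 1 selected line. Whether SCR passed through colonies is not given in the sources used here. The titles call the libraries of a line biological replicates without saying whether they came from separate cultures, and p-values measure the spread between these libraries.

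An antisense long noncoding gene is transcribed from the strand opposite to a protein-coding gene and is usually named after that partner. Such a gene can overlap its partner head to head, tail to tail or inside it, or it can start at a shared promoter and run the other way, an arrangement called divergent. Some antisense RNAs are known to act on their partner, through chromatin, splicing or RNA stability, others act elsewhere in the cell, and for many no role is known. In neuroblastoma the antisense genes beside transcription factors such as HAND2 and GATA2 lie in regions that are strongly active in the adrenergic cell state.

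The members are the upper end of a large class. Of 1236 genes whose symbol fits the pattern, 411 were listed at 0 in every library, 342 had a mean above 0 and under 10, 309 had a mean from 10 to under 100, and 174 reached 100. HOXD-AS2 (mean 235) and EPB41L4A-AS1 (mean 1840) were left out by the rule. Just inside the minimum lay ATP2A1-AS1 with a mean of 100.958, KCTD21-AS1 with 101.07 and FRMD6-AS1 with 101.125. Just outside it lay BCDIN3D-AS1 with 99.5, SIX3-AS1 with 97.4 and KANSL1-AS1 with 97.3. The median of the members' means was 238, and 24 members reached 1000.

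The promoters of the following members are shown as examples of patterns described below, TMEM108-AS1 as the large rise inside its partner, SPRY4-AS1 as a divergent pair that rose together, PRKAG2-AS1 as a head-to-head pair that moved in opposite directions and ATP2B1-AS1 as a head-to-head pair that rose together. Each run covers 250 bases before the start of the gene and 50 after it, 5′ to 3′ on the strand of the antisense gene, from RefSeq on GRCh38.p14. Capitals mark the CCAAT box, the GC box GGGCGG, or the TATA element TATAAA, each searched on both strands, and these motifs do not overlap here. The windows are chr3:133257072-133257371 (minus strand), chr5:142325043-142325342 (plus strand), chr7:151876792-151877091 (plus strand) and chr12:89708705-89709004 (plus strand).
TMEM108-AS1: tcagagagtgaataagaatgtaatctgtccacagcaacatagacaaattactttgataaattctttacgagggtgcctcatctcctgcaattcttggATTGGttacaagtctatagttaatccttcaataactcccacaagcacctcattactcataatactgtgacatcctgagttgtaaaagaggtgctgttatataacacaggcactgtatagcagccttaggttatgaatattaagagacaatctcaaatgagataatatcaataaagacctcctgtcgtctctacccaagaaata
SPRY4-AS1: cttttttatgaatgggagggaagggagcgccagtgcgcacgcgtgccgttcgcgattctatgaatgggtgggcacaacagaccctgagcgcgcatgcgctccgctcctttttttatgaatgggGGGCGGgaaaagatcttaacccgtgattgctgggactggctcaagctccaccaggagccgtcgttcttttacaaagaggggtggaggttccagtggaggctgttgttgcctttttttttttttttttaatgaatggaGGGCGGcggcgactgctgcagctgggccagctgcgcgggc
PRKAG2-AS1: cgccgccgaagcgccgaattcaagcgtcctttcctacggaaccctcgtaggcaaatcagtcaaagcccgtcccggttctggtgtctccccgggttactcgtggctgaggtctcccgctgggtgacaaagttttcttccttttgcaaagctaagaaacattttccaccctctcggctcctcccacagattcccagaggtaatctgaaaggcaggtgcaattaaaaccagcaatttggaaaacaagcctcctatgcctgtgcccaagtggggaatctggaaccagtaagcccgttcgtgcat
ATP2B1-AS1: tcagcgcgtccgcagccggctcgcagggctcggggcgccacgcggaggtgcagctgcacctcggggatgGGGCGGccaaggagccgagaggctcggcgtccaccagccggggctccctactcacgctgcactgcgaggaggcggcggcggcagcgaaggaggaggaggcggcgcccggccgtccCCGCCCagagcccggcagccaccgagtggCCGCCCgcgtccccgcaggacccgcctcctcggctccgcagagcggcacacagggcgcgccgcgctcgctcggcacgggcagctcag

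The 4 windows differ in base composition. The TMEM108-AS1 window has a GC content of 36.7% with 2 CG dinucleotides and holds 1 CCAAT, which lies on the strand opposite to the printed one and begins 153 bases before the start. The SPRY4-AS1 window has 55.7% GC and 20 CG dinucleotides, with GGGCGG at 2 places. The PRKAG2-AS1 window has 53.3% GC, 16 CG dinucleotides and none of the 3 motifs. The ATP2B1-AS1 window has 78.3% GC and 43 CG dinucleotides, with GGGCGG at 3 places. Of the 172 members, 146 matched the RefSeq promoter table, with a median GC content of 64.3% against 58.3% over all 27305 promoters. GGGCGG, on either strand, stood in 64.4% of the members' windows and in 44.6% of all windows, CCAAT in 31.5% and 35.7%, and TATAAA in 6.2% and 12.0%. A match describes letters in a window and does not mark a bound site.

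Most members overlap the gene they are named for. With strands from GENCODE 44 or RefSeq, 124 members overlapped their partner on the opposite strand, 55 of them head to head, 38 tail to tail, 20 inside the partner and 11 around it. A further 35 were divergent, with starts 16 to 513 bp apart and a median of 97 bp. The remaining 7 pairs had another arrangement, 5 members had no partner in the table, and for 1 the strand of the partner was not known. Membership was set by symbol alone. GENCODE 44 types TP73-AS1 and EMC3-AS1 as transcribed pseudogenes, and RefSeq lists some members, such as COX10-AS1, under a divergent transcript name. In 120 of 155 pairs with annotated exons on both sides, exons of the pair shared bases on opposite strands, with a median of 295 bp. The library kit keeps the strand, but the strand setting of the counting is not given in the sources used here, so reads from shared exons cannot be told apart with certainty. The arrangement follows the coordinates of the table, so divergent pairs can share exon bases in GENCODE, as 15 of 27 with annotated exons did. The length of shared exons is given beside pairs whose genes are compared below.

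The depth and the targeted gene are the frame for all comparisons. The table holds whole counts divided by a size factor for each library, and recovered totals ran from 59804395 to 81080747 per library. PRPF40B had 840, 841 and 918 normalized counts in G2, 1686, 1672 and 1669 in SCR, and 1972 and 1668 in WT, so every G2 library lay below every control library (log2 change -0.95 against SCR and -1.07 against WT). The sympathoadrenal identity of the line was checked with 10 markers, of which 9 had a mean of at least 100. Their summed counts ran from 98204 to 108159 in G2, from 192728 to 208037 in SCR and from 213202 to 226583 in WT. The summed counts of 10 mesenchymal or fibroblast markers, 9 of them at 100 or more, ran from 149616 to 150993 in G2, from 53600 to 55111 in SCR and from 48672 to 53864 in WT. The sums do not describe every gene. Against SCR and WT, GATA3 of the first list was higher in G2 (0.37 and 0.28) and TWIST1 of the second was lower (-0.39 and -0.34). COL3A1 (means 40955, 3348 and 253 in G2, SCR and WT), DCN (37183, 1051 and 166), LUM and FAP were also higher in SCR than in WT. PTPRC, CD3E, HBB, PECAM1 and CDH5 of the blood and endothelial list had means under 10. The sum of this list ran from 666 to 735 in G2, from 58.2 to 70.4 in SCR and from 73.3 to 124 in WT, and nearly all of it was CD68, a lysosomal protein gene abundant in macrophages (means 703, 65.3 and 86.8 in G2, SCR and WT). SOX10, a Schwann cell factor, had a mean under 10, and the glial gene S100B was lower in G2 (means 162, 484 and 422). The epithelial list summed to 290 to 422 in G2, 261 to 300.04 in SCR and 256 to 297 in WT. Both large marker sums, CD68 and S100B moved with G2, and their part in the results below was not tested. In these bulk samples, fewer cells of a type and less RNA per cell cannot be told apart.

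In the most abundant members G2 lay apart from the controls, with changes of less than 1.5-fold. HAND2-AS1, beside the sympathoadrenal transcription factor HAND2, had the highest mean, with 15334, 15389 and 15850 normalized counts in G2, 19378, 20145 and 19490 in SCR, and 16503 and 17578 in WT. Every G2 library lay below every control library, but the log2 changes of -0.34 against SCR and -0.13 against WT stayed under the threshold used for differential expression (DE), a fold change of at least 1.5 with an unadjusted p of at most 0.05. HAND2 itself passed it, at -0.64 against SCR and -0.59 against WT, and shares 867 bp of exon with HAND2-AS1. FGD5-AS1, an abundant antisense RNA named for a guanine exchange factor of Cdc42, had 15032, 14592 and 14561 counts in G2, 11166, 11724 and 11561 in SCR, and 11500 and 13235 in WT. TP73-AS1 (means 5115, 6629 and 6429 in G2, SCR and WT), OIP5-AS1 (6740, 4569 and 4970) and MAGI2-AS3 (4588, 3520 and 3733) followed. In these 4 genes too G2 did not overlap the controls, with log2 changes between -0.37 and 0.56 and no call. OIP5-AS1 was near the threshold, at 0.56 ± 0.06 (standard error) in G2/SCR, and was called when SCR replicate 2 was left out (0.60). In G2/WT it was called after scaling to the same total (0.63).

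Levels between genes were compared only per kilobase of exon. On that scale 45 of 155 antisense genes lay above their partner over all libraries (38 in G2, 46 in SCR and 52 in WT), and the median of the antisense level over the partner level was 0.260. The exon lengths are from GENCODE 44 and can differ from the genes that were counted. PPM1F-AS1 has 37876 bp of exon there, while the counted gene spans 5198 bp. Levels per kb are thus approximate, and the effect on these counts was not tested. The largest contrast among the abundant members was FGD5-AS1, with 2138 normalized counts per kb against 1.76 for FGD5. TTN-AS1 had 17.4 per kb against 0.0406 for TTN, the giant muscle protein gene, which is barely expressed in this line. HSD17B1-AS1 (1033 against 12.7), PIK3CD-AS2 (402 against 18.0) and MAGI2-AS3 (223 against 3.86) likewise lay above their partners by this measure. The exons of TTN-AS1 share 14004 bp with TTN and those of HSD17B1-AS1 share 1578 bp with HSD17B1, against 176 bp for FGD5-AS1, 268 bp for MAGI2-AS3 and none for PIK3CD-AS2. In other pairs the order changed with the line. PRKAG2-AS1 lay above PRKAG2 in SCR (309 against 52.1) and WT (172 against 36.3) but not in G2 (75.9 against 79.0), and KMT2E-AS1 lay above KMT2E in SCR (224 against 156) and WT (185 against 126) but below it in G2 (129 against 163).

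**Figure D1:**
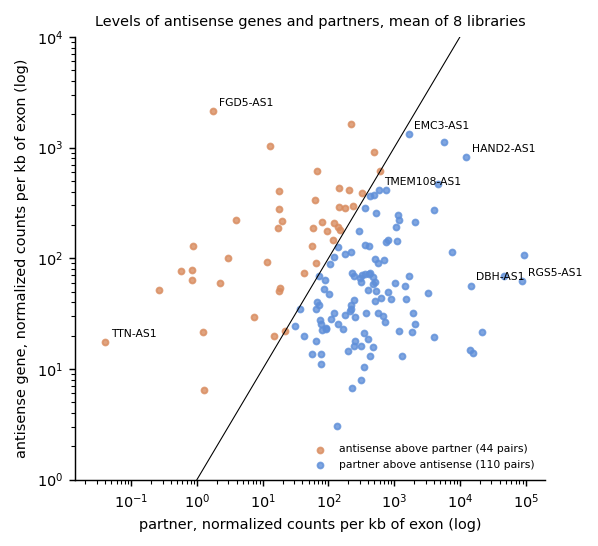
Mean level over the 8 libraries of each antisense member (vertical axis) and its partner (horizontal axis), in normalized counts per kb of exon on log scales, with 1 point per pair and the line of equal levels. Most pairs lie to the right of the line, where the partner is higher, and FGD5-AS1 stands far to its left at 2138 against 1.76. The pair whose partner is listed at 0 is not drawn.

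Compared with SCR, antisense members in G2 were more often lower than higher. Of 172 members, 52 (30.2%) were called in G2/SCR, 15 higher (8.72%) and 37 lower (21.5%). Over all 18947 genes tested 26.9% were called, 15.1% higher and 11.8% lower, and among genes averaging 100 or more the shares were 14.7% and 8.89% (23.6% in all). The share of members called was thus above both background shares and nearer to that of all genes tested. Lower members were more frequent and higher ones less frequent than in either background, and these differences were not tested. The median log2 change of the members was -0.23, against -0.01 over all genes tested. Of the 37 lower members, 12 were also called higher in SCR/WT. Of the 52 members called, 23 were not called in G2/WT. Part of this lean therefore lay in members where SCR was high, and shares of all genes with these patterns were not worked out. All 52 were also called with the Benjamini-Hochberg adjusted p (limma) held to 0.05, as were 25% of all genes. With all libraries scaled to the same total, which shifts the median of all genes by -0.09, 13 members were higher and 47 lower.

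Compared with WT, the count was similar but its split depended on the scaling. In G2/WT 48 members (27.9%) were called, 18 higher and 30 lower, against 29.9% of all genes (17.7% higher, 12.2% lower) and 27.8% of those averaging 100 or more (16.1% and 11.7%). With the libraries scaled to the same total, which moves the median of all genes by 0.18, the split was 33 higher and 13 lower, so no direction can be given for the class in G2/WT. The median log2 change of the members was -0.12 as deposited. The G2/SCR and G2/WT comparisons share the G2 libraries and are not independent of each other.

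The controls differed from each other as well. In SCR/WT 30 members (17.4%) were called, 23 higher and 7 lower, against 16.3% of all genes (10.7% higher, 5.63% lower) and 13.2% of those averaging 100 or more (7.66% and 5.53%). Of the 30, 29 passed at the adjusted p, as did 13.8% of all genes. Scaling to the same total shifted the median of all genes by 0.27 and gave 48 higher and 1 lower. Leaving out WT replicate 2 gave 11 lower in place of 7. Members close to the minimum passed it partly through the line where they are high. Of the 28 members with a line mean under 100, 23 were called in a comparison with G2. Among those named below, ZFPM2-AS1, SPRY4-AS1, ID2-AS1, ATP2B1-AS1 and DBH-AS1 had both control means under 100 and passed only through G2. GAS6-AS1 passed only through SCR. Named falls such as ZNF790-AS1, RAB33B-AS1, FRMD6-AS1 and DPP10-AS1 had a G2 mean under 100 and passed through the control lines. The rule chose these genes by the line or lines where they are high, so their changes and p-values are a description. Among the 144 with every line mean at 100 or more, 8 were higher and 23 lower in G2/SCR, with 10 higher and 20 lower in G2/WT and 15 and 6 in SCR/WT.

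**Figure D2:**
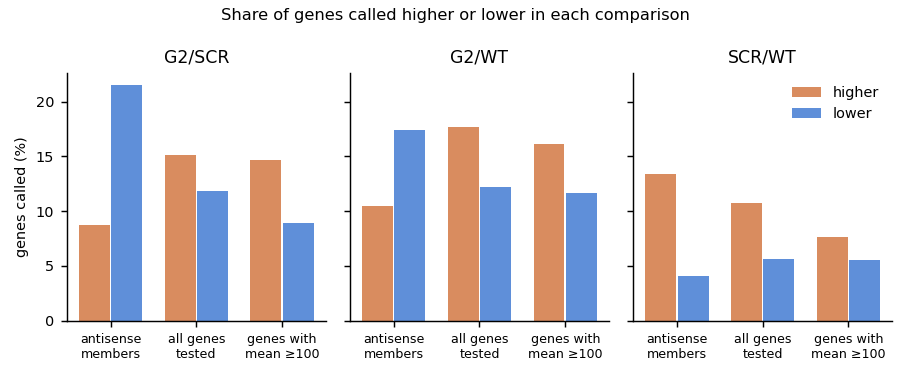
Share of genes called higher (orange) or lower (blue) in each comparison, in percent, for the 172 antisense members, all 18947 genes tested and those averaging 100 or more, all on the deposited scale. In G2/SCR 21.5% of the members were lower, against 11.8% of all genes, and 8.72% higher, against 15.1%.

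A member was counted as specific to G2 when G2 was called in the same direction against both controls and SCR/WT was not called. This held for 21 members (12.2%), 7 higher and 14 lower, against 13.8% of all genes tested (8.13% higher, 5.63% lower) and 13.1% of those averaging 100 or more (8.21% and 4.86%). The rises include ZFPM2-AS1, SPRY4-AS1 and ID2-AS1, which passed the minimum only through G2. The falls include RAB33B-AS1 and FRMD6-AS1, which passed it through the controls. The split without such members was not worked out, so these counts are a description. In all 21 the 3 G2 libraries did not overlap the 5 control libraries. Over all 172 members this was so for 73 (42.4%, 26 above and 47 below), against 42.5% of all genes tested (22.8% above, 19.7% below) and 49.5% of those averaging 100 or more (26.1% and 23.4%). For single members the exact two-sided permutation test of 3 G2 against 5 control libraries gives at best p = 0.0179. The 21 were chosen by calls on these same libraries. This test therefore cannot check them, and their separation from the controls is a description.

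ZFPM2-AS1 was the member closest to a gain from nothing. It had 532, 564 and 549 normalized counts in G2, but 0, 0.938 and 0.756 in SCR and 0 and 3.97 in WT. The controls were thus at the floor, here 9 recovered counts per library since small counts in this table are mostly multiples of 3 (71.3% to 75.6% of counts up to 30), and G2 was at least 67.3-fold higher than SCR and at least 54.5-fold higher than WT. ZFPM2, the FOG2 cofactor of GATA factors, had 16.9, 8.76 and 10.7 counts in G2 and was listed at 0 in all 5 control libraries. Exons of the pair share no base, and the mean of ZFPM2 was too low for a test.

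Some antisense genes specific to G2 rose beside partners that rose too. SOCS2-AS1, head to head with the JAK-STAT suppressor gene SOCS2, had 424, 431 and 455 normalized counts in G2, 171, 143 and 147 in SCR, and 179 and 140 in WT. Against SCR the log2 change was 1.51 ± 0.13 (standard error; limma, adjusted p = 1.4e-06) and against WT 1.46 ± 0.15, and the G2 libraries did not overlap the controls. SOCS2 rose by less, by 0.97 and 0.66, and the ratio of SOCS2-AS1 to SOCS2 was called higher in G2/WT (0.80 ± 0.17) but not in G2/SCR (0.53 ± 0.15). The pair shares 277 bp of exon.

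SERTAD4-AS1 rose from 250, 237 and 244 in SCR and 266 and 323 in WT to 663, 625 and 637 in G2, a log2 change of 1.39 ± 0.10 and 1.13 ± 0.11. Its head-to-head partner SERTAD4 rose by 1.53 and 0.65, and the exons share 177 bp. SPRY4-AS1, which starts 253 bp from the RTK signalling inhibitor gene SPRY4 and runs the other way without shared exon bases, had 119, 164 and 150 counts in G2, 77.6, 99.5 and 86.9 in SCR, and 86.9 and 85.4 in WT. Both genes of this divergent pair rose, SPRY4-AS1 by 0.71 and 0.73 and SPRY4 by 0.87 and 0.87, so that their ratio was not called (-0.16 ± 0.19 against SCR and -0.14 ± 0.21 against WT). ASMTL-AS1 (248 ± 32.7 in G2, 111 ± 9.25 in SCR, SD, n = 3 each, and 129 ± 10.8 in WT, n = 2) and its partner ASMTL were likewise both called higher in both comparisons, with 225 bp of exon shared.

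ID2-AS1 rose beside a partner without a call, and DLGAP1-AS1 beside a partner near the floor. ID2-AS1, divergent from the helix-loop-helix inhibitor gene ID2 with starts 184 bp apart and 145 bp of shared exon, had 151, 149 and 184 normalized counts in G2, 68.4, 78.8 and 74.8 in SCR, and 90.6 and 107 in WT. Its log2 changes were 1.11 ± 0.17 and 0.70 ± 0.18, and the latter fell below the threshold when WT replicate 1 was left out (0.58). ID2 had between 26025 and 34729 counts in every library and was not called (0.31 against SCR and -0.07 against WT), and the ratio to ID2 was called in both comparisons (0.80 and 0.76). DLGAP1-AS1, inside the gene of a postsynaptic scaffold protein, rose from 166 to 220 counts in the controls to 389, 431 and 436 in G2 (1.25 ± 0.11 and 1.00 ± 0.13), and no exon bases are shared with DLGAP1. DLGAP1 had 9.41, 12.0 and 23.6 counts in G2, 12.2, 0 and 0.756 in SCR, and 14.9 and 10.9 in WT. It was called higher in G2/SCR (2.39 ± 0.94, adjusted p = 0.053, limma) and not in G2/WT (0.12 ± 1.05), with overlap of the lines.

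The strongest falls among the members specific to G2 also split by partner. ZNF790-AS1, tail to tail with a zinc finger gene, had 110, 67.9 and 102 normalized counts in G2, 209, 242 and 235 in SCR, and 201 and 255 in WT, a log2 change of -1.31 ± 0.19 in G2/SCR (adjusted p = 1.0e-04, limma) and -1.30 ± 0.21 in G2/WT. ZNF790 had 291 to 331 counts in all 8 libraries, and the ratio of the pair was called lower in both comparisons (-1.39 and -1.38), with 60 bp of exon shared. RAB33B-AS1 (81.6 ± 18.1 in G2, 163 ± 20.5 in SCR, SD, n = 3 each, and 142 ± 11.2 in WT, n = 2) and RAMP2-AS1 (-0.96 and -0.81) fell in the same manner, with RAB33B, a Golgi GTPase gene, at 0.26 and 0.47 and RAMP2, the gene of a receptor activity modifying protein, at -0.01 and 0.08. They share 466 and 379 bp of exon with their partners, and their ratios were called lower in both comparisons. SDCBP2-AS1 fell too (-1.16 and -0.90), while SDCBP2, between 26.3 and 66.3 counts and with 120 bp of shared exon, was not called.

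Other falls ran along with the partner. PROX1-AS1, upstream of the homeobox gene PROX1, had 476, 496 and 465 normalized counts in G2, 889, 960 and 908 in SCR, and 913 and 1065 in WT. Its log2 change was -0.94 ± 0.08 against SCR and -1.04 ± 0.09 against WT, with no overlap between G2 and the controls. PROX1 fell as well (-0.83 and -1.19), and the ratio of the pair, which shares 163 bp of exon, was not called. TSPOAP1-AS1 (-1.11 and -1.09) fell with TSPOAP1 (-1.36 and -1.16), whose product binds presynaptic RIM proteins, and ACVR2B-AS1 (-1.14 and -0.89) with the activin receptor gene ACVR2B (-0.62 and -0.60). The first pair shares 252 bp of exon and the other none.

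FRMD6-AS1, 1 of the members nearest the minimum, fell without its partner. It had 64.9, 73.4 and 67.7 counts in G2, 81.6, 154 and 138 in SCR, and 113 and 116 in WT. It was called at -0.80 and -0.73, but its G2/WT call was lost when the libraries were scaled to the same total (-0.55), and without WT replicate 2 (-0.71). FRMD6, in which it lies, had means of 2005, 1682 and 1118 counts in G2, SCR and WT, so that it was not called in G2/SCR (0.25) and was called higher in G2/WT (0.85) and SCR/WT (0.60).

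**Figure D3:**
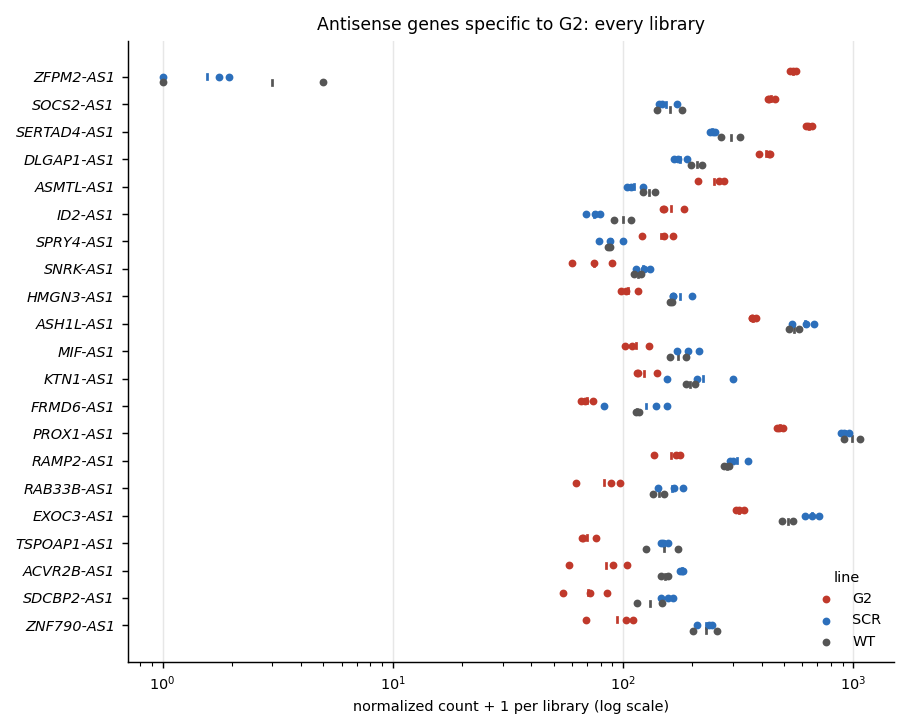
Normalized count + 1 on a log scale in every library for the 21 antisense members specific to G2, with G2 in red, SCR in blue and WT in grey and a tick at each line's mean. The 3 G2 libraries are apart from the 5 control libraries in all 21 genes, 7 of them above and 14 below, and ZFPM2-AS1 shows counts of 532 to 564 in G2 against at most 3.97 in the controls.

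Several of the largest changes lay in members that also differed between SCR and WT. TMEM108-AS1 had 2979, 3041 and 3093 normalized counts in G2, 238, 276 and 240 in SCR, and 453 and 398 in WT. G2 lay far above all controls, with a log2 change of 3.59 ± 0.09 in G2/SCR (adjusted p = 3.3e-11, limma) and 2.83 ± 0.10 in G2/WT, and SCR lay below WT (-0.76 ± 0.10, and -0.48 with no call after scaling to the same total). The gene lies on chromosome 3 from 133246446 to 133257121 on the minus strand, inside TMEM108 (133045893 to 133397775, plus strand), whose product acts in endosomal trafficking in neurons, and shares no exon base with it.

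TMEM108 itself differed from SCR but not beyond the spread from WT. It had 5635, 5965 and 5632 normalized counts in G2, 3326, 3301 and 3186 in SCR, and 6204 and 5690 in WT, so that G2 was above SCR (0.81) and overlapped WT (-0.05). The ratio of TMEM108-AS1 to TMEM108 rose by 2.78 ± 0.11 and 2.88 ± 0.13 and was not called between the controls (0.10 ± 0.13).

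DPP10-AS1 showed the largest fall. It had 110, 88.7 and 99.9 normalized counts in G2, 1052, 1093 and 982 in SCR, and 704 and 620 in WT, a log2 change of -3.38 ± 0.11 in G2/SCR (adjusted p = 2.4e-10, limma) and -2.72 ± 0.12 in G2/WT. DPP10, the gene of an auxiliary subunit of A-type potassium channels, fell along with it, from 1090 to 1422 counts in the controls to 232, 235 and 189 in G2 (-2.66 and -2.34). DPP10-AS1 lies inside DPP10 without shared exon bases, and the ratio of the pair was called lower in G2/SCR (-0.72 ± 0.15) but not in G2/WT (-0.38 ± 0.17).

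ATP2B1-AS1 rose with ATP2B1, the gene of a plasma membrane calcium pump. ATP2B1-AS1 had 241, 222 and 222 normalized counts in G2, 103, 92.0 and 102 in SCR, and 62.1 and 55.6 in WT (1.20 ± 0.15 and 1.94 ± 0.16). ATP2B1 rose from 832 to 1045 counts in the controls to 4075, 4013 and 3835 in G2 (1.99 and 2.14). The starts of this head-to-head pair lie 411 bp apart and its exons share 148 bp, where reads could belong to either gene. None of the 8 libraries departs from the order of the lines, G2 above SCR above WT, for ATP2B1-AS1.

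In 2 pairs both genes were called in both G2 comparisons in opposite directions. DBH-AS1 had 213, 204 and 210 normalized counts in G2, 59.2, 44.1 and 62.7 in SCR, and 102 and 71.5 in WT, a rise of 1.91 ± 0.19 and 1.28 ± 0.22. It passed the minimum for members only through G2. DBH, dopamine beta-hydroxylase, which makes noradrenaline and is among the sympathoadrenal markers, fell from 49293 to 63064 counts in the controls to 14907, 15601 and 15194 in G2 (-1.74 and -2.00). DBH-AS1 lies inside DBH and shares 118 bp of exon with it, and the ratio of the pair rose by 3.65 ± 0.23 and 3.28 ± 0.25, the largest rise among the ratios called in both comparisons by the smaller of these 2 values.

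PRKAG2-AS1 moved the other way. It had 187, 122 and 117 normalized counts in G2, 544, 589 and 601 in SCR, and 363 and 280 in WT (-2.05 ± 0.17 and -1.19 ± 0.19). PRKAG2, the gene of a regulatory subunit of AMP-activated kinase, had 1330, 1326 and 1272 in G2, 903, 826 and 864 in SCR, and 600 and 606 in WT, so that it rose by 0.60 and 1.12. The pair is head to head with starts 83 bp apart and 99 bp of shared exon. Its ratio changed by -2.65 ± 0.21 against SCR and -2.31 ± 0.23 against WT, and in no line did the libraries of either gene overlap those of another line.

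**Figure D4:**
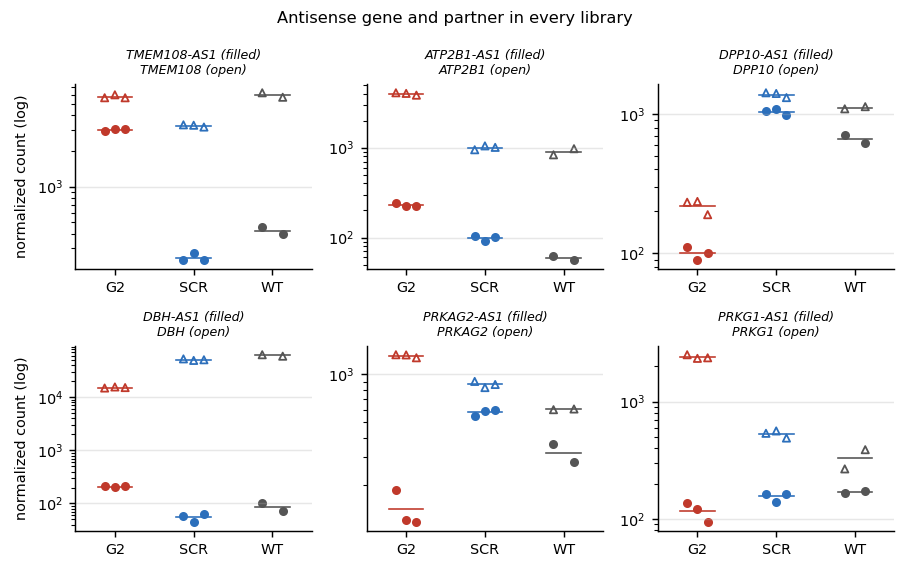
Normalized counts on log scales in every library for 6 pairs, with antisense genes as filled circles, partners as open triangles and a line at each mean, and G2 in red, SCR in blue and WT in grey. TMEM108-AS1 rises to about 3037 in G2 while TMEM108 overlaps WT, ATP2B1-AS1 and DPP10-AS1 move with their partners, DBH-AS1 and PRKAG2-AS1 move against theirs, and PRKG1 rises in G2 while PRKG1-AS1 is not called.

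Calls were set side by side over the 156 pairs in which both genes were tested. Over both directions together, partners were called in a larger share of pairs when the antisense gene was called, though not in most of them. In both G2 comparisons most of the higher antisense genes had a called partner, and most of the lower ones did not. In G2/SCR 14 antisense genes of these pairs were higher, 10 of them with a higher partner, 1 with a lower partner (DBH-AS1) and 3 with a partner not called. Of the 35 that were lower, 7 had a lower partner, 3 a higher partner and 25 a partner not called. Of the 107 antisense genes not called, 19 had a higher partner, 6 a lower partner and 82 a partner not called. In G2/WT 15 were higher, with 7 higher and 2 lower partners, and 29 were lower, with 6 lower and 5 higher partners. Of the 112 antisense genes not called in G2/WT, 21 had a higher and 5 a lower partner. In SCR/WT 18 were higher, with 2 higher and 1 lower partners, and 7 were lower, with 2 lower and 0 higher partners. Of the 131 not called there, 10 had a higher and 7 a lower partner. In G2/SCR the partners themselves leaned the other way from the antisense genes, with 32 higher and 14 lower (28 and 20 after scaling to the same total). In G2/WT 33 partners were higher and 13 lower (44 and 10 after scaling). The partner changes were read from the same fit over all genes, in which 15.1% were higher and 11.8% lower in G2/SCR and 17.7% and 12.2% in G2/WT.

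The test of the antisense-to-sense ratio compares the change of the pair directly. In G2/SCR 63 of 156 ratios (40.4%) were called, 10 higher and 53 lower, against 37.3% of all 434 antisense pairs of the table (5.99% higher, 31.3% lower). In G2/WT 58 (37.2%) were called, 16 higher and 42 lower, against 32.3% (9.68% higher, 22.6% lower), and in SCR/WT 35 (22.4%), 22 higher and 13 lower, against 23% (16.6% higher, 6.45% lower). Scaling to the same total leaves the ratio nearly as it is and gave the same counts of 63, 58 and 35. Lower ratios in G2/SCR were thus common over all pairs with both means at 10 or more, and the members' share lay near that of all pairs.

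Many of the largest ratio changes lay in pairs where the partner was called and the antisense gene was not. PRKG1-AS1 had 135, 120 and 93.5 normalized counts in G2, 164, 139 and 165 in SCR, and 166 and 175 in WT, and was not called (-0.43 and -0.56). PRKG1, the cGMP-dependent protein kinase gene, rose from 537, 562 and 489 in SCR and 267 and 389 in WT to 2508, 2336 and 2362 in G2 (2.18 and 2.89), a ratio change of -2.61 ± 0.20 and -3.46 ± 0.23. The pair shares 282 bp of exon. All G2 libraries of PRKG1-AS1 lay below the controls, and its G2/WT value passed the threshold when G2 replicate 1 (-0.68), G2 replicate 2 (-0.59) or WT replicate 1 (-0.60) was left out.

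C1QTNF1-AS1 and GATA2-AS1 gave the same picture in opposite directions. C1QTNF1, a gene of the C1q and TNF related family, rose by 2.07 and 2.10 while C1QTNF1-AS1 was at -0.27 and -0.49 without a call, a ratio change of -2.34 ± 0.24 and -2.59 ± 0.27. The C1QTNF1-AS1 value in G2/WT passed without WT replicate 2 (-0.74) or without G2 replicate 1 (-0.62). GATA2-AS1 had 781, 730 and 838 normalized counts in G2, 674, 775 and 735 in SCR, and 864 and 881 in WT, with overlap of the lines. GATA2, the adrenergic GATA factor gene, fell from 21761 to 27097 counts in the controls to 12305, 12985 and 13556 in G2 (-0.80 and -1.03), and the ratio rose by 0.91 ± 0.14 and 0.88 ± 0.16. C1QTNF1-AS1 shares no exon base with its partner, and GATA2-AS1 shares 78 bp. GATA2 and DBH belong to the sympathoadrenal markers whose sum was lower in G2. For ENTPD1-AS1 the ratio changed by -3.27 ± 1.17 and -3.98 ± 1.30, but ENTPD1 had at most 18.8 counts in SCR and was at the floor in WT, so that the size depends on the pseudocount, and 5742 bp of exon are shared. The adjusted p were 0.070 and 0.062 (limma), and the call was lost without G2 replicate 2 (-3.05), G2 replicate 3 (-3.30) or SCR replicate 1 (-2.17) in G2/SCR and without WT replicate 1 (-2.36) in G2/WT.

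**Figure D5:**
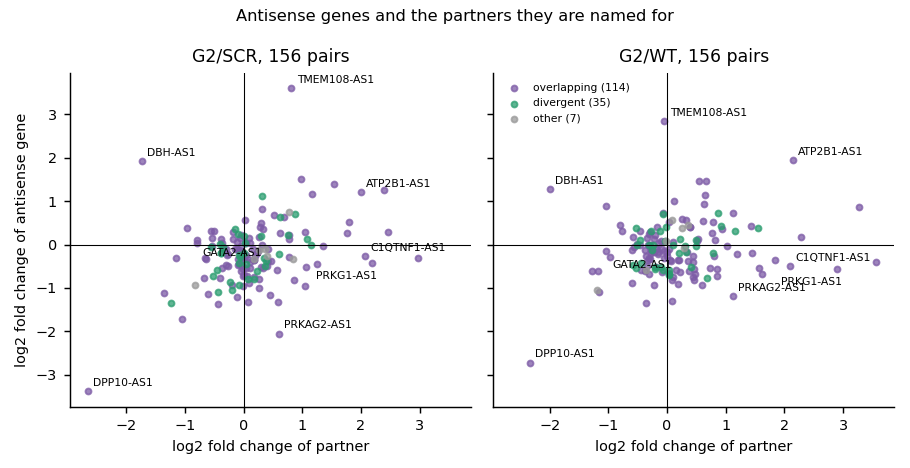
Log2 change of the antisense gene (vertical axis) against that of its partner (horizontal axis) for the 156 pairs tested, in G2/SCR and G2/WT, with overlapping pairs in purple, divergent pairs in green and other arrangements in grey. Most points lie near the origin, DPP10-AS1 lies at the lower left with its partner (-3.38 against -2.66 in G2/SCR), and DBH-AS1 and PRKAG2-AS1 lie in the quadrants of opposite change.

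The arrangement of the pair was set beside the calls. Among the 35 divergent members 3 were higher and 10 lower in G2/SCR, and 2 and 3 in G2/WT, where over all genes 15.1% were higher and 11.8% lower in G2/SCR and 17.7% and 12.2% in G2/WT. In the 13 divergent pairs with the antisense gene called in G2/SCR, the partner was called the same way in 3 and the opposite way in 0. In the 5 such pairs in G2/WT it was called the same way in 1 and the opposite way in 1. Among the 124 overlapping members 11 were higher and 26 lower in G2/SCR, and of the 34 called with a tested partner 12 had a partner called the same way and 4 the opposite way. In G2/WT 14 were higher and 25 lower. Of the 38 called there with a tested partner, 11 had a partner called the same way and 6 the opposite way. Head-to-head members accounted for 7 of the 14 falls specific to G2 and for 2 of the 7 rises, and make up 55 of the 172 members. Over all genes tested 5.63% were specific to G2 and lower, and 8.13% specific and higher. The difference between arrangements was not tested.

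Divergent members were also called lower in G2/SCR beside partners without a call. KMT2E-AS1, 49 bp from the start of the chromatin regulator gene KMT2E with 158 bp of exon shared, had 134, 136 and 119 normalized counts in G2, 233, 206 and 236 in SCR, and 189 and 183 in WT. It was called lower in G2/SCR (-0.79 ± 0.13), not in G2/WT (-0.52 ± 0.14), and KMT2E was not called in either. SCAMP1-AS1, 40 bp from the start of the secretory carrier gene SCAMP1 without shared exon bases, had 559, 452 and 441 counts in G2, 811, 950 and 886 in SCR, and 515 and 594 in WT, so that only SCR stood apart (-0.87 in G2/SCR and 0.67 in SCR/WT).

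SCR stood apart in further members. GAS6-AS1, named for the ligand of the TAM receptors, had 52.7, 75.6 and 51.6 normalized counts in G2, 208, 189 and 196 in SCR, and 23.6 and 41.7 in WT. It was the member called in opposite directions in the G2 comparisons (-1.72 ± 0.24 and 0.89 ± 0.27) and had the largest rise in SCR/WT (2.61 ± 0.27). Its call in G2/WT was lost without WT replicate 1 (0.49). GAS6 fell in G2 (-1.06 and -1.04) and was not called in SCR/WT (0.02), and 421 bp of exon are shared.

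PAXBP1-AS1 (174.7 ± 7.31 in G2, 402.5 ± 17.3 in SCR, SD, n = 3 each, and 191.5 ± 1.29 in WT, n = 2) had the same shape, with PAXBP1, which shares 629 bp of exon, not called in any comparison. ZEB1-AS1, head to head with the epithelial to mesenchymal transition factor gene ZEB1, had 242, 263 and 242 counts in G2, 344, 384 and 358 in SCR, and 159 and 171 in WT. It rose by 1.13 ± 0.12 in SCR/WT and by 0.59 ± 0.12 in G2/WT, a call lost without G2 replicate 2 (0.55), without WT replicate 1 (0.54) and with a pseudocount of 10 (0.57), while ZEB1, with 396 bp of exon shared, was not called. In G2/SCR it was at -0.54 with no call and was called lower after scaling to the same total (-0.63). MCF2L-AS1 was called higher in SCR/WT (1.05 ± 0.26), but its WT libraries were 219 and 100.3 counts, and without WT replicate 2 the value was 0.49 with no call.

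WT stood apart in TMPO-AS1. It had 558, 521 and 594 normalized counts in G2, 477, 543 and 475 in SCR, and 1506 and 1333 in WT, a log2 change of -1.51 ± 0.10 in SCR/WT and -1.35 ± 0.10 in G2/WT. TMPO, the gene of a nuclear lamina protein, fell by 0.62 in SCR/WT and shares 646 bp of exon with TMPO-AS1, while the ratio was called lower in both comparisons with WT (-0.89 and -0.98). EMC3-AS1 (-0.71 ± 0.12 in SCR/WT, -0.93 ± 0.12 in G2/WT) was also highest in WT. Its SCR/WT call was lost without WT replicate 2 (-0.53) and after scaling to the same total (-0.43). RGS5-AS1, inside the G protein signalling regulator gene RGS5, was lower in SCR than in WT (-0.66 ± 0.15), a call lost without WT replicate 1 (-0.58) and after scaling (-0.38). RGS5 itself, with 438985 to 808621 counts the most abundant partner named here, rose in G2 by 0.77 and 0.74 and shares no exon base with RGS5-AS1.

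The members were also grouped by the role of their partner, in lists written by hand that cover 56 of the 172 and are broad, so that some partners fit them loosely. Over all genes tested 26.9% were called in G2/SCR, 29.9% in G2/WT and 16.3% in SCR/WT. Of 10 members beside transcription factors of neural crest, neuroblastoma or patterning, 1 was higher and 0 lower in G2/SCR (ZFPM2-AS1), with a median log2 change of -0.11 against SCR and 0.15 against WT. GATA2-AS1 and HAND2-AS1 were in this list and not called. Of 8 members beside neuronal genes, 1 was higher (DLGAP1-AS1) and 1 lower (DPP10-AS1) in each G2 comparison, with medians of -0.08 and 0.03. This list also holds PCBP1-AS1, whose partner encodes a general RNA-binding protein.

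Of 7 members beside genes of adhesion, the cytoskeleton and receptor signalling, 2 were higher and 0 lower in G2/SCR, among them SPRY4-AS1, and 1 was higher and 2 lower in G2/WT (medians 0.36 and 0.26). Of 6 beside RNA and chromatin genes, 0 were higher and 2 lower in G2/SCR (KMT2E-AS1 and PAXBP1-AS1), and 0 and 1 in G2/WT (medians -0.37 and -0.11). Of 8 beside cell cycle and repair genes, 0 were higher and 1 lower in both G2/SCR and G2/WT (medians 0.10 and -0.12), with TMPO-AS1 the lower gene in G2/WT and in SCR/WT. The list also holds CKMT2-AS1, whose partner encodes a mitochondrial creatine kinase. NUTM2A-AS1 in this list has a near-identical copy, NUTM2B-AS1, so its 2425 ± 124 counts in G2 (SD, n = 3) are uncertain. Of 18 beside genes of membrane transport and metabolism, 1 was higher and 3 lower in G2/SCR and 3 and 2 in G2/WT (medians -0.17 and -0.12), among them ATP2B1-AS1, ACVR2B-AS1 and SCAMP1-AS1. In SCR/WT the 6 lists had 2, 1, 1, 1, 0 and 3 members higher and 0, 1, 1, 0, 1 and 0 lower. The medians over all genes tested were -0.01 in G2/SCR, 0.00 in G2/WT and 0.01 in SCR/WT, and the lists are too short for a statement beyond these counts.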

How the data were processed

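Polyadenylated RNA of 3 G2, 3 SCR and 2 WT libraries was sequenced in pairs of reads. The authors used STAR for alignment to hg38 and featureCounts for counting per gene of FAST DB, and deposited a signal, the normalized count, which is the count divided by the DESeq2 size factor of the library. It is not scaled to gene length, and replicates are not pooled. Columns were assigned to samples by name, and none was left over. Other columns of the table, which hold the authors' own comparisons, were not used.

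Values were tested with limma 3.58.1 in R 4.3.3 on log2(normalized count + 1) for the 18947 genes averaging 10 or more, and this pseudocount makes changes of low genes look smaller. A single fit held a mean for each line, with a trend in eBayes. Calls need a 1.5-fold or larger change with p (unadjusted) no higher than 0.05, as the study's methods set it. All adjusted p follow Benjamini and Hochberg over all genes, or over all 434 pairs for the ratio, log2(antisense + 1) minus log2(partner + 1). Errors after ± are standard errors of log2 changes unless named as SD. Whole counts were recovered from the steps of the values, which could not be checked for WT replicate 2, so these counts entered DESeq2 1.42.0 and edgeR 4.0.16 for G2/SCR only. Floors cover counting error only. The fits were tested on simulated data.

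Arrangements came from the coordinates of the table, strands and exons of GENCODE 44 (161 members matched by symbol) or RefSeq, on the same build. Divergent means no overlap and starts at most 1000 bp apart. The named genes are the members specific to G2 with the largest smaller change over both G2 comparisons (at most 8 in each direction), the 5 with the highest mean, the 4 largest rises and falls in SCR/WT, pairs called in both genes and both G2 comparisons (at most 4 in each class), the 3 largest ratio changes in each direction, and a few neighbours of the minimum or examples noted earlier. Also named are the 2 members of each list by partner role with the smallest p in G2/SCR, among them KMT2E-AS1 and SCAMP1-AS1. These were thus picked by that comparison. TTN-AS1, HSD17B1-AS1 and PIK3CD-AS2 were chosen after their values were seen. The members, lists and tests were chosen with earlier results of these data known. Replicate numbers were checked for pairing and do not mark pairs. Alternatives covered the pseudocount, filters, scaling, thresholds, the block and each library left out. Of 1 marker list only 2 genes are given, and the list as a whole is not reported here.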

Additional observations from a re-analysis of the deposited data

How the results depend on the processing

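Settings were changed 1 at a time. No call reversed its direction. With the libraries scaled to the same total, members called in SCR/WT rose from 30 to 49 and partners from 22 to 36, and the splits given above for G2/WT and SCR/WT changed. Testing only genes with a mean of at least 100 left 3088, 3633 and 1723 genes called in G2/SCR, G2/WT and SCR/WT, since fewer genes were tested. An adjusted p left 17 of the ratios in SCR/WT. A fold change of at least 2 left 2951, 3176 and 1491 genes, 23, 15 and 7 members, 23, 25 and 3 partners and 25, 31 and 7 ratios in the same order, with 11 members specific to G2. Taking members from a mean of 50 gave 86, 76 and 55 called and 33 specific, and from a mean of 200 it gave 22, 25 and 19 called and 8 specific, since the list itself grows or shrinks.

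DESeq2 and edgeR on recovered counts called 52 and 51 members in G2/SCR, all among the 52 of limma. With each library left out, members called ran from 46 to 56 in G2/SCR, from 47 to 59 in G2/WT and from 29 to 33 in SCR/WT, and members specific to G2 from 19 to 26. Ratios called ran from 61 to 65, from 56 to 63 and from 30 to 45.

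Same-numbered libraries deviated together with correlations from -0.173 to 0.147, so they share only a number. With the replicate block by title number, members called were 52, 52 and 33, and with the block by library-name number 51, 49 and 32, with 21 and 23 specific to G2. Among named members, the block by library-name number changed 2 calls, FRMD6-AS1 in G2/WT lost (-0.55) and RGS5-AS1 in G2/WT gained (-0.67).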
